A study of Mus musculus with 22 samples.

Results

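The RNA of T-bet- conventional type 2 dendritic cells (cDC2s) was compared with that of conventional type 1 dendritic cells (cDC1s) in the mesenteric lymph nodes (MLN) of mice. The libraries were chosen by organ and sorted subset alone, which gave 2 T-bet- cDC2 and 3 cDC1 libraries, 5 of the 22 libraries of the series, and all genes of the count table entered. The series sorted cDC1s and both cDC2 subsets, with and without T-bet, from spleen and MLN for bulk RNA sequencing, and the same subsets from spleen for ATAC-seq, an assay of open chromatin. The MLN comparison addresses how far the T-bet- cDC2 of the gut-draining node stands from the cDC1 beside it, with the cDC1 as the reference lineage.

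Dendritic cells capture antigen, carry it to lymph nodes and present it to T cells. The cDC1 lineage depends on the transcription factors IRF8 and BATF3, takes up dying cells and is specialised for presenting their antigens on MHC class I to CD8+ T cells, whereas the cDC2 lineage presents mainly on MHC class II to CD4+ T cells and is more varied. The mesenteric node holds resident dendritic cells together with migratory ones that arrive from the intestine by lymph, and migration is accompanied by a maturation program led by the chemokine receptor CCR7.

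All animals were Tbx21RFP-cre mice of both sexes, 6 to 10 weeks old, homozygous for a knock-in at Tbx21 through which T-bet expressing cells carry a red fluorescent protein, so the cDC1 libraries came from the same genotype as the cDC2 libraries, and no animal was treated. Each library held cells from a pool of 2 mice. Within cells lacking lineage markers, CD64 and Ly6C and bearing CD11c and MHC class II, cDC2s were sorted as CD11b+ XCR1- cells and cDC1s as CD11b- XCR1+ cells, and the T-bet- cDC2s were those without the fluorescent protein. The gate did not separate resident from migratory cells, and in sorted pools fewer cells of a type and less RNA per cell cannot be told apart. The p-values measure the spread between these libraries, which came from 1 sequencing experiment. Total counts ran from 22733964 to 29006549 per library, and between 18723 and 20102 genes had at least 1 read.

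Values below are read counts normalised to a common library size by TMM, a scaling that assumes most genes are alike, and are given in replicate order. Fold changes are T-bet- cDC2 over cDC1 on the log2 scale ± standard error, and every adjusted p is from edgeR's quasi-likelihood test with Benjamini-Hochberg adjustment over all genes tested, a gene being called at an adjusted p under 0.05. Tbx21 itself was scarce in both subsets, at 14.9 and 24 in the T-bet- cDC2 libraries and 6.6, 9.9 and 9.1 in the cDC1 libraries, against 188 and 77.4 in the MLN T-bet+ cDC2 libraries.

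The 3 cDC1 libraries were not alike. The cDC1 replicate 1 lay below 50% of both other cDC1 libraries in 1740 of 15298 genes (11.4%), but in 25 of 34 genes of the mature migratory dendritic cell list (73.5%), and it lay more than 2-fold above both others in 18 of 32 cell cycle genes (56.2%) and 7 of 24 cDC1 identity genes (29.2%), against 1056 of all genes (6.9%). The summed level of the migratory list was 15921 CPM (counts scaled to one library total) in that library, 40709 and 39885 in the other cDC1 libraries, and 37049 and 36043 in the T-bet- cDC2 libraries. The plot of the migratory genes shows 1 cDC1 library displaced as a whole. Its deviations from the group mean correlated at 0.657 with those of MLN T-bet+ replicate 1. The value for T-bet+ replicate 2 was -0.657, since deviations in a group of 2 are equal and opposite. T-bet+ replicate 1 held 56698 of Ccr7 against 203725 in T-bet+ replicate 2. Like that cDC1 library, T-bet+ replicate 1 carries the number 1 in its name, whereas the T-bet- libraries are named 2 and 3. Whether that number marks a batch is not stated and was not tested. Counts of list members are therefore also given from fits without single libraries, in the order without T-bet- cDC2 replicate 1, without T-bet- cDC2 replicate 2 and without cDC1 replicate 1. For lists with calls in both directions mostly the higher counts are given. Most lower calls among all genes were lost in the fits that left 1 T-bet- library, so lower calls of the lists carry the same limit.

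**Figure D1:**
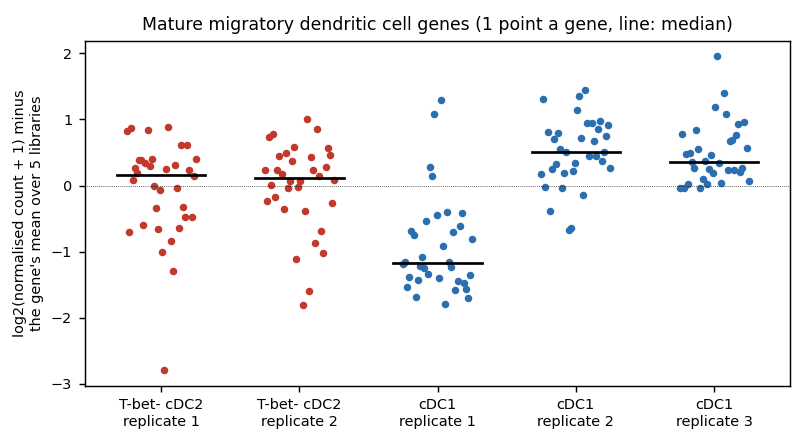
Mature migratory dendritic cell genes in each of the 5 MLN libraries. Each point is 1 gene, plotted as log2(normalised count + 1) minus that gene's mean over the 5 libraries, and the bar is the median, which is -1.18 in cDC1 replicate 1 against 0.50 and 0.36 in the other cDC1 libraries and 0.16 and 0.12 in the T-bet- cDC2 libraries.

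Of 15298 genes tested, 885 were called (5.79%), 664 of them higher in T-bet- cDC2s (4.34%) and 221 lower (1.44%). At an unadjusted p under 0.05 the count was 3006, DESeq2 called 1730 of the 17579 genes to which it gave an adjusted p (9.84%), and the libraries of the subsets did not overlap in 5975 genes (39.1%). The median log2 fold change of all genes was 0.01. Counts of list members below are to be read beside the shares of all genes, 4.34% higher and 1.44% lower. The called number fell to 177 without T-bet- cDC2 replicate 1, 230 without T-bet- cDC2 replicate 2, 549 without cDC1 replicate 2 and 410 without cDC1 replicate 3, and was 750 without cDC1 replicate 1. The excess of higher over lower calls widened on leaving out a T-bet- library, from 75% higher to 93.2% without replicate 1 and 88.3% without replicate 2, and narrowed to 62.8% by DESeq2. The plot of all genes shows the called genes reaching about as far below 0 as above it.

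**Figure D2:**
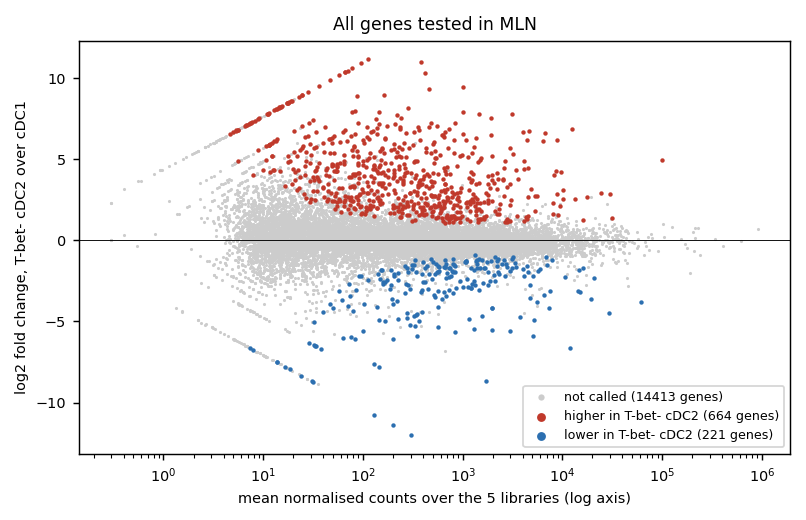
Log2 fold change of T-bet- cDC2 over cDC1 in MLN against mean expression, 1 point per gene tested. Coloured points are the 664 genes called higher and the 221 called lower by edgeR's quasi-likelihood test at an adjusted p under 0.05.

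The sorted identities were checked on the markers of each subset, shown library by library in the plot of markers. Xcr1, the receptor for XCL1 and the surface marker by which the cDC1 gate was set, measured 199 and 200.3 in T-bet- cDC2s against 32867, 11259.9 and 14514 in cDC1s (log2 fold change -6.61 ± 1.00, adjusted p = 0.01). Csf1r, the receptor for the growth factors CSF1 and IL-34, measured 36619.9 and 25436 against 179, 418 and 202. Its lowest T-bet- library stood well above its highest cDC1 library (log2 fold change 6.86 ± 0.56, adjusted p = 0.00086), and it was called in every alternative fit. The MLN T-bet+ cDC2 libraries held 5143 and 2351 normalised counts of Csf1r, between the other subsets. Ccr2, the receptor through which monocytes leave the bone marrow, measured 6559 and 5339 in the T-bet- cDC2 libraries and 3527, 1331 and 2421 in the cDC1 libraries. Both T-bet- libraries were above all 3 cDC1 libraries, yet the difference did not pass the test (log2 fold change 1.29 ± 0.45, adjusted p = 0.15), and the T-bet+ libraries held 47.1 and 105 normalised counts of Ccr2. The Ccr2 gene lies at chr9:124101950-124113557 on the plus strand of GRCm38, and the Xcr1 gene at chr9:123852315-123862029 on the minus strand of the same chromosome.

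**Figure D3:**
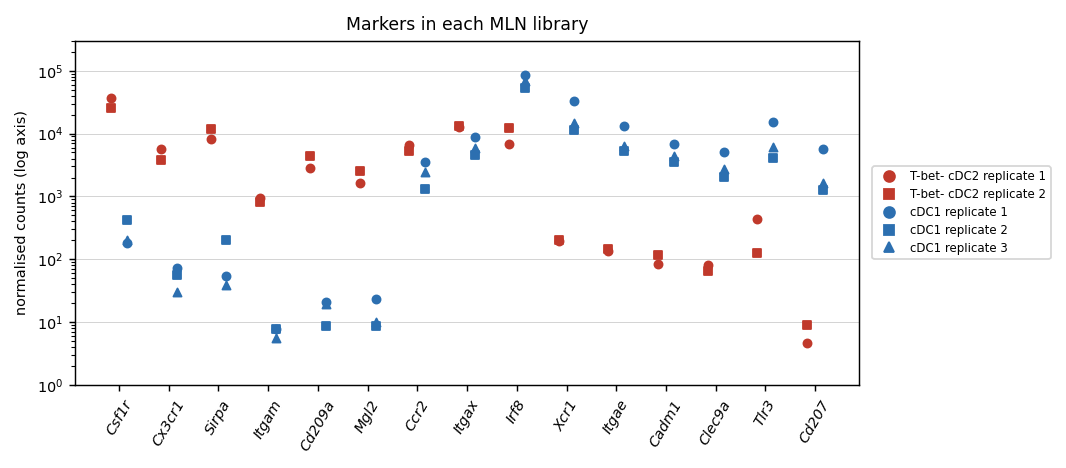
Normalised counts (log axis) of subset markers, 1 point per MLN library, with the 2 T-bet- cDC2 libraries in red and the 3 cDC1 libraries in blue. The points of the subsets do not overlap for any gene drawn, as for 39.1% of all genes tested. Ccr2, Itgax and Irf8 did not pass the test.

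Genes given as markers of a subset mostly followed the sort. Sirpa, the inhibitory receptor that marks cDC2s, measured 8115 and 11904 in T-bet- cDC2s against 53.6, 202 and 39.1 in cDC1s (log2 fold change 6.67 ± 0.81, adjusted p = 0.0043). Itgam, the CD11b integrin chain used in the gate, measured 936 and 811 against 7.7, 7.7 and 5.5 (log2 fold change 6.96 ± 0.54, adjusted p = 0.00069). Clec4a4, the lectin recognised by the 33D1 antibody, measured 427 and 396 in the T-bet- cDC2 libraries and 10.9, 3.3 and 1.8 in the cDC1 libraries (log2 fold change 6.27 ± 0.60, adjusted p = 0.0016), and Lyz2, the lysozyme of myeloid cells, measured 291574 and 178676 in T-bet- cDC2s against 10954, 6625 and 5305 in cDC1s (log2 fold change 4.95 ± 0.59, adjusted p = 0.0038). These 4 genes separated the subsets without overlap, as did 39.1% of all genes tested. Irf4, a transcription factor of cDC2s, did not pass the test at 2699 and 2769 against 233, 916 and 1253 (log2 fold change 1.77 ± 0.57, adjusted p = 0.13). Clec12a, an inhibitory lectin, went the other way without passing the test, at 1993 and 2308 in the T-bet- cDC2 libraries and 6159.6, 2413 and 3904 in the cDC1 libraries (log2 fold change -0.95 ± 0.39, adjusted p = 0.22), and Batf3 overlapped between the subsets at 2182 and 3674 in T-bet- cDC2s against 2465, 2929 and 2463 in cDC1s.

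The 10 largest called increases were led by genes with no read in any cDC1 library, for which only a lower bound of the fold can be given, set at 3 counts over the group. Dscam, a homophilic adhesion molecule, measured 232 and 332 against 0, 0 and 0, at least 273-fold higher in T-bet- cDC2s. The bounds were at least 236-fold for Pcdh18, a protocadherin, 191-fold for Gdf3, a ligand of the TGF-beta family, and 172-fold for Mir99ahg, a long noncoding host transcript of microRNAs. They were at least 166-fold for Kcnk5, a potassium channel, 161-fold for Cd300lg, an immunoglobulin-like receptor also known as nepmucin, and 142-fold for Cdh1, the E-cadherin gene. Clec4a1, a lectin of the DCIR family, had 1974 raw counts in the T-bet- cDC2 libraries and 1 in the cDC1 libraries, a ratio of 2780 per library size with a 95% counting interval of 499 to 110000. Siglece, an inhibitory receptor for sialic acid, had 2193 against 2 raw counts, a ratio of 1550 (428 to 12800). Sirpb1a, an activating relative of Sirpa, measured 2507 and 2512 in the T-bet- cDC2 libraries and 5.5, 3.3 and 1.8 in the cDC1 libraries (log2 fold change 9.46 ± 0.50, adjusted p = 0.00051). Sirpb1a and Clec4a1 belong to families of closely similar genes, so reads kept only when uniquely aligned may misstate their levels.

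The largest called decreases were led by genes with no read in T-bet- cDC2s. Ptgis, the prostacyclin synthase gene, measured 0 and 0 in T-bet- cDC2s against 705, 368 and 446 in cDC1s, at least 347-fold lower in T-bet- cDC2s. Cyp8b1, a sterol hydroxylase of bile acid synthesis, measured 0 and 0 against 480.1, 292 and 226, at least 225-fold lower, and Alpl, an alkaline phosphatase, measured 0 and 0 in the T-bet- cDC2 libraries and 342, 133 and 170 in the cDC1 libraries, at least 147-fold lower. None of these 3 genes had a read in a T-bet- cDC2 library. Ppef2, a calcium-regulated phosphatase, had 2 raw counts against 683, a ratio of 242 (66.8 to 2000). Cd207, which encodes the lectin langerin, measured 4.6 and 9 in T-bet- cDC2s against 5672, 1263 and 1619.5 in cDC1s (log2 fold change -8.69 ± 1.41, adjusted p = 0.013). Fzd1, a Wnt receptor, and Notch4, a Notch receptor, had log2 fold changes of -6.08 ± 1.05 and -6.06 ± 0.81. The pseudogene H2-M6-ps followed at -5.94 ± 1.05. Itgae, the CD103 integrin chain, measured 134 and 145 against 13310.1, 5242 and 6429 (log2 fold change -5.90 ± 0.57, adjusted p = 0.0017). In every gene of this paragraph, as in Xcr1, cDC1 replicate 1 held the highest value of the 5 libraries.

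For several of these genes an ATAC window of 150 bases within 2000 bases of the gene start differed between the subsets in spleen. The sequences of 4 such windows, each the one with the largest called change at its gene, are printed because RNA and chromatin can be set side by side there. Letters are those of the reference genome GRCm38.p6 on the strand of the gene, and capitals mark every match, on either strand, to 6 short motifs of dendritic cell regulators: GAGGAAGT for PU.1, TGANTCA for AP-1, TTGCNNAA for C/EBP, TGTGGTT for RUNX, GAAA followed after 2 bases by GAAA for repeated IRF sites and GGAA followed after 2 bases by GAAA for an ETS site next to an IRF site. The Xcr1 window, chr9:123863318-123863467, is centred at position -1364 relative to the gene start outside any annotated gene, and the Sirpb1a window, chr3:15428036-15428185, is centred at -1590, likewise outside genes. The Ppef2 window, chr5:92256693-92256842, is centred at -490, also outside genes, and the Cyp8b1 window, chr9:121915570-121915719, is centred at 660 past the start, in coding sequence over all its 150 bases.
Xcr1: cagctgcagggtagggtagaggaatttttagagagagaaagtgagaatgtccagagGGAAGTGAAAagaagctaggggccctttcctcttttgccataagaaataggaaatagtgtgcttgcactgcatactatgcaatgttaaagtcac
Sirpb1a: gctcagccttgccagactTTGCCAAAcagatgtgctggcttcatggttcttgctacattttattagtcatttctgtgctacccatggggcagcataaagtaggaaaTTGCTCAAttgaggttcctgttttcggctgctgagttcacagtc
Ppef2: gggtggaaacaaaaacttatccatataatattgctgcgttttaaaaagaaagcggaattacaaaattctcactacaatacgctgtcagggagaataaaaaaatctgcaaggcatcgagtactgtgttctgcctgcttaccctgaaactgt
Cyp8b1: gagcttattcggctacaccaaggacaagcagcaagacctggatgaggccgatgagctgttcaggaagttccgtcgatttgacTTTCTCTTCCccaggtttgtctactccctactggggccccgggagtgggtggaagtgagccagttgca
The Xcr1 and Cyp8b1 windows each held 1 match to the ETS next to IRF motif, on the gene strand in Xcr1 and on the opposite strand in Cyp8b1, the Sirpb1a window held 2 C/EBP matches, and the Ppef2 window held none. Of all 177956 windows, 3.19% held the ETS next to IRF motif, 5.89% the C/EBP motif, 5.5% the PU.1 motif, 7.9% the AP-1 motif, 5.23% the RUNX motif and 2.39% the repeated IRF motif. A match is a run of letters and was not tested as a binding site.

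Accessibility at these windows is given as normalised window counts in the 2 T-bet- cDC2 and the 2 cDC1 ATAC libraries of spleen. The Xcr1 window held 55.4 and 58.8 against 92 and 140 (log2 fold change -1.02, adjusted p = 0.0027). The Sirpb1a window held 89 and 109 against 41.8 and 39.1 (log2 fold change 1.29, adjusted p = 0.00015). The Ppef2 window held 14.1 and 9.8 against 123 and 164 (log2 fold change -3.59, adjusted p = 1.8e-13). The Cyp8b1 window held 14.1 and 23.2 against 88.9 and 87.4 (log2 fold change -2.21, adjusted p = 7.7e-07). These 4 windows, chosen among called ones, differed in the direction of the MLN RNA. The window over the start of Cd300lg held 49.9 and 33.9 against 1 and 2.3 (log2 fold change 4.56, adjusted p = 9e-09), and the window over the start of Alpl 17.4 and 20.5 against 53.3 and 46 (log2 fold change -1.38, adjusted p = 0.0032).

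The cDC1 identity list, genes of cDC1 development and function, was lower as a group. Of its 24 tested members, 16 were lower and none higher, with a median log2 fold change of -3.91, where 1.44% of all genes were called lower. The refitted lower counts were 2, 2 and 12. Cadm1, an adhesion molecule, measured 85.5 and 118 in the T-bet- cDC2 libraries and 6766, 3472 and 4383 in the cDC1 libraries (log2 fold change -5.58 ± 0.98, adjusted p = 0.017). Clec9a, the receptor for actin exposed on dead cells, measured 80 and 64.1 in T-bet- cDC2s against 5018, 2028 and 2763 in cDC1s (log2 fold change -5.50 ± 1.23, adjusted p = 0.041). Tlr3, the sensor of double-stranded RNA, measured 435 and 127 against 15166, 4139 and 6227 (log2 fold change -4.92 ± 0.82, adjusted p = 0.014). Gpr33, a chemoattractant-like receptor, had a log2 fold change of -5.66 ± 1.2. Clec9a shares exonic bases with Clec1b on the same strand. Irf8, the lineage-determining factor of cDC1s, had its highest T-bet- value at 12302 and its lowest cDC1 value at 52402, but missed the threshold (log2 fold change -2.83 ± 0.72, adjusted p = 0.063). Id2, another factor of the lineage, overlapped at 66403 and 53895 in the T-bet- cDC2 libraries and 46630.3, 60828 and 60243 in the cDC1 libraries, and Ly75, the uptake receptor DEC-205, measured 6746 and 4456 in T-bet- cDC2s against 8482, 14861 and 14868 in cDC1s without passing the test.

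The list of cDC2 markers and regulators was higher as a group, with 14 of 24 members higher and none lower, a median of 3.43 and refitted counts of 10, 10 and 14, against 4.34% of all genes called higher. Cd209a, a DC-SIGN relative, measured 2871 and 4404 against 20.8, 8.8 and 19.1 (log2 fold change 7.79 ± 0.55, adjusted p = 0.00056), and Mgl2, a galactose-binding lectin, measured 1658 and 2497 in the T-bet- cDC2 libraries and 23, 8.8 and 10 in the cDC1 libraries (log2 fold change 7.22 ± 0.83, adjusted p = 0.0035). Clec4a2, the inhibitory lectin DCIR, had a log2 fold change of 6.63 ± 0.81. Tmem176a, a membrane protein of cDC2s, measured 41252 and 36376 in T-bet- cDC2s against 1799, 8777 and 7990.3 in cDC1s and just missed the threshold (log2 fold change 2.65 ± 0.63, adjusted p = 0.052). It overlaps Tmem176b on the opposite strand. Itgax, which encodes CD11c, and Relb, an NF-kB subunit of mature dendritic cells, did not pass, at log2 fold changes of 1.02 ± 0.40 and 0.05 ± 0.70.

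Genes associated with monocytes and macrophages were higher in 16 of 27 tested members and lower in none, with a median of 4.17 and refitted counts of 8, 9 and 14. Adgre4, an adhesion receptor of the F4/80 family, measured 5390.1 and 4101 against 3.3, 73.5 and 0.9 (log2 fold change 7.54 ± 1.25, adjusted p = 0.014). Msr1, a scavenger receptor, measured 2112 and 1136 in the T-bet- cDC2 libraries and 17.5, 24.1 and 5.5 in the cDC1 libraries (log2 fold change 6.70 ± 0.88, adjusted p = 0.0061). Cx3cr1, the fractalkine receptor, measured 5689.5 and 3850.3 in T-bet- cDC2s against 72.2, 56 and 30 in cDC1s (log2 fold change 6.5 ± 0.41, adjusted p = 0.00056). The libraries of the subsets did not overlap for these genes, as for 39.1% of all genes tested. The share of all genes called higher was 4.34%. F13a1, a coagulation factor subunit, had 130 raw counts against 2, a ratio of 91.7 (24.9 to 765). Nr4a1, a nuclear receptor of patrolling monocytes, Lgals3, a galectin, and Vcam1, an adhesion molecule, were abundant in both subsets and did not pass, at 0.32 ± 0.60, -0.02 ± 0.31 and 1.25 ± 0.64.

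Markers of lymph node and tissue macrophages moved with this group, where 4.34% of all genes were called higher. Of 13 tested, 7 were higher and none lower, with refitted counts of 2, 4 and 6, and their summed level was 2667.7 and 1444.5 CPM in the T-bet- cDC2 libraries against 88.4 to 214.5 CPM in the cDC1 libraries. The members called were the complement genes C1qa, C1qb and C1qc together with Siglec1, Adgre1, Fcgr1 and Mertk. Cd5l and Vsig4, which mark resident macrophages, were too low to be tested, and Cd163 measured 1.9 and 11 against 3.3, 0 and 0. The part of macrophage RNA in the monocyte, complement and Fc receptor values was not tested. Ly6C monocyte markers were higher in 2 of 10 members, F13a1 and Ms4a4c, and neutrophil markers in none of 7, with summed levels from 0.7 to 20.5 CPM over the 5 libraries.

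Markers of other cells that the gate could have admitted are set beside all genes, of which 4.34% were called higher and 1.44% lower. B cell markers were higher in 2 of 13, Cd79b and Fcer2a. T cell markers were called in none of 12, with summed levels of 104.4 and 140.8 CPM in T-bet- cDC2s and 32 to 107 CPM in cDC1s. NK and innate lymphoid cell markers (none of 7), stromal and endothelial markers (none of 12) and mast cell and basophil markers (none of 2) gave no call. Plasmacytoid dendritic cell markers gave Runx2 higher and Pacsin1 lower among 11, plasma cell markers gave Prdm1 higher among 6, and erythroid and platelet markers were higher in 2 of 4, Pf4 and Ermap. The markers of other cells named here were taken because they were called or define the cell type, after their values were seen.

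Transcription factors of dendritic cells were higher in 9 of 46 members and lower in none, with a median of 0.42 and refitted counts of 3, 5 and 7. Zeb2, a repressor needed for cDC2s and plasmacytoid cells, measured 8261 and 6142 in the T-bet- cDC2 libraries and 56.9, 249 and 122 in the cDC1 libraries (log2 fold change 5.66 ± 0.58, adjusted p = 0.002), and shares exonic bases with Zeb2os on the opposite strand. Nr1h3, the oxysterol receptor LXR-alpha, measured 3970.5 and 2075 in T-bet- cDC2s against 24.1, 134 and 60 in cDC1s (log2 fold change 5.38 ± 0.69, adjusted p = 0.0053). Both genes were low in all cDC1 libraries. Maf, a factor related to the AP-1 family, measured 182 and 79.1 in the T-bet- cDC2 libraries and 6.6, 7.7 and 1.8 in the cDC1 libraries (log2 fold change 4.6 ± 0.70, adjusted p = 0.01). Klf6 was abundant in both subsets and overlapped, with a log2 fold change of 0.11 ± 0.40. For comparison with this list, 4.34% of all genes were called higher.

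Toll-like receptors were called in both directions, where 4.34% of all genes were called higher and 1.44% lower. Of 22 receptors and co-receptors, 7 were higher and 1 lower, with a median of 0.79 and refitted higher counts of 3, 4 and 7. Tlr7, a sensor of single-stranded RNA, measured 657 and 428 in T-bet- cDC2s against 1.1, 6.6 and 0 in cDC1s (log2 fold change 7.73 ± 0.79, adjusted p = 0.002), and Tlr8, its neighbour in the family, 411 and 409 against 0, 2.2 and 12.7 (log2 fold change 6.26 ± 0.92, adjusted p = 0.0086). Tlr5, the flagellin receptor, measured 449 and 272 in the T-bet- cDC2 libraries and 9.8, 9.9 and 15.5 in the cDC1 libraries (log2 fold change 4.92 ± 0.46, adjusted p = 0.0015). Tlr1, which pairs with TLR2 on lipopeptides, measured 4153 and 3085 in T-bet- cDC2s against 276, 486 and 652 in cDC1s (log2 fold change 2.94 ± 0.37, adjusted p = 0.0047), and Ticam2, the TRAM adaptor of TLR4, 1099.8 and 1074 against 86.4, 109 and 77.3 (log2 fold change 3.58 ± 0.29, adjusted p = 0.00083), in a locus shared with Tmed7 on the same strand. The 1 member lower was Tlr3, described above. Tlr11, the profilin receptor, measured 2480.3 and 1598 in the T-bet- cDC2 libraries and 10749, 4767 and 6189 in the cDC1 libraries and did not pass (adjusted p = 0.11). Unc93b1, the chaperone that carries nucleic acid sensing receptors to endosomes, and Myd88, the common adaptor, did not pass, at 0.24 ± 0.33 and -0.21 ± 0.34.

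C-type lectins were called in both directions, 13 of 32 higher and 4 lower, with a median of 2.69. Over all genes the shares were 4.34% and 1.44%. The refitted higher counts were 9, 8 and 12, and the lower counts 0, 0 and 2. Clec4a3, of the DCIR family, measured 2825 and 2231 in T-bet- cDC2s against 1.1, 23 and 7.3 in cDC1s (log2 fold change 7.91 ± 0.75, adjusted p = 0.0016), and Clec4n, the fungal receptor dectin-2, 2343 and 1255 against 5.5, 36.2 and 5.5 (log2 fold change 6.85 ± 0.80, adjusted p = 0.0036). The lower members were Cd207, Clec9a, Clec4b2, at 11.2 and 9 in the T-bet- cDC2 libraries and 132, 42.8 and 89.1 in the cDC1 libraries (log2 fold change -3.11 ± 0.66, adjusted p = 0.033), and Clec1a, at 31.6 and 41.1 in T-bet- cDC2s against 487, 167 and 204 in cDC1s (log2 fold change -2.97 ± 0.59, adjusted p = 0.026). Clec2i overlapped between the subsets.

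Among Fc receptors and complement genes more members were called higher than lower, as among all genes (4.34% higher and 1.44% lower). Most members of either list were not called. Fc receptors were higher in 4 of 13 and lower in 1, with a median of 1.99 and refitted higher counts of 4, 4 and 6. Fcer1g, the shared signalling chain, measured 10479 and 9074 against 402, 309.5 and 274 (log2 fold change 4.89 ± 0.33, adjusted p = 0.00056). Fcgr3, a low-affinity receptor for IgG, measured 1983 and 1236 in the T-bet- cDC2 libraries and 18.6, 28.5 and 11.8 in the cDC1 libraries (log2 fold change 6.36 ± 0.53, adjusted p = 0.00089). Fcgr1, which encodes CD64, the protein excluded by the gate, measured 366 and 167 in T-bet- cDC2s against 2.2, 4.4 and 2.7 in cDC1s (log2 fold change 6.38 ± 0.57, adjusted p = 0.0014). Fcer2a, the low-affinity IgE receptor, measured 188 and 241 against 3.3, 12.1 and 2.7 (log2 fold change 5.15 ± 0.62, adjusted p = 0.0041). The 1 lower member was Fcrla, an intracellular Fc receptor-like protein, at 33.5 and 8 in the T-bet- cDC2 libraries and 841, 346 and 413 in the cDC1 libraries (log2 fold change -4.67 ± 0.74, adjusted p = 0.012). Fcgr2b, the inhibitory receptor, and Fcgrt, the neonatal receptor, did not pass, at 1.69 ± 0.51 and -0.72 ± 0.43.

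Complement components and receptors were higher in 8 of 21 and lower in none, with a median of 2.76 and refitted counts of 1, 2 and 6. C1qa, C1qb and C1qc, the chains of the initiating protein C1q, measured 15190.5 and 7751 in T-bet- cDC2s against 27.3, 201 and 90.9 in cDC1s for C1qa, 22193 and 11025 against 50.3, 318 and 141 for C1qb and 14758 and 6721 in the T-bet- cDC2 libraries and 47, 283 and 113 in the cDC1 libraries for C1qc. In each, T-bet- replicate 1 was above replicate 2, and cDC1 replicate 2 held the highest of the cDC1 values. Their log2 fold changes were 6.75 ± 1.05, 6.61 ± 1.00 and 6.18 ± 0.96, with adjusted p = 0.011, 0.0098 and 0.011. The macrophage marker sums given above were highest in the same T-bet- library, and their part in these values was not tested. C5ar2, a receptor for C5a, had no read in a cDC1 library and was at least 44.7-fold higher. Cfp, which encodes properdin, measured 15457 and 9759.5 in T-bet- cDC2s against 4782, 1508 and 1639.5 in cDC1s and did not pass (log2 fold change 2.25 ± 0.60, adjusted p = 0.072).

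Scavenger and dead-cell uptake receptors were higher in 9 of 27 and lower in 1, with a median of 2.03 and refitted higher counts of 2, 3 and 6. Cd300lb, an activating receptor of myeloid cells, measured 614 and 561 against 1.1, 0 and 11.8 (log2 fold change 6.96 ± 0.93, adjusted p = 0.0064), and Lrp1, an endocytic receptor, 857 and 1683 in the T-bet- cDC2 libraries and 16.4, 35.1 and 7.3 in the cDC1 libraries (log2 fold change 6.03 ± 0.82, adjusted p = 0.0066). Havcr1, which encodes the phosphatidylserine receptor TIM-1, measured 221 and 89.1 in T-bet- cDC2s against 3.3, 8.8 and 0 in cDC1s (log2 fold change 5.27 ± 1.10, adjusted p = 0.032). Cd36, a receptor for lipids and dying cells, ran the other way at 1196 and 992 against 12524, 5848 and 8244 and narrowly missed the threshold (log2 fold change -3.02 ± 0.73, adjusted p = 0.055). Cd68, an endosomal glycoprotein, did not pass, at 1.28 ± 0.46. Without cDC1 replicate 1 the scavenger list had no lower call. Beside this list, 4.34% of all genes were called higher and 1.44% lower.

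Antigen processing genes are set beside all genes, of which 4.34% were called higher and 1.44% lower. Of 30 MHC class I and cross-presentation genes 1 was higher and 1 lower, with a median of -0.32. The higher one was Cybb, the catalytic subunit of the phagocyte oxidase, at 16664 and 14436 in the T-bet- cDC2 libraries and 141, 339 and 198 in the cDC1 libraries (log2 fold change 6.10 ± 0.48, adjusted p = 0.00073), and the lower one was Wdfy4, which cross-presentation by cDC1s requires, at 6073 and 6203 in T-bet- cDC2s against 43264, 19219 and 29307 in cDC1s (log2 fold change -2.32 ± 0.53, adjusted p = 0.046). The class I genes B2m, H2-D1 and H2-K1 did not pass, at 0.14 ± 0.44, -0.67 ± 0.45 and -0.47 ± 0.47. Of 18 MHC class II presentation genes 3 were higher and none lower, with a median of 0.33 and refitted counts of 0, 1 and 2. H2-Eb2, a beta chain of limited expression, measured 3003 and 2264 against 213, 449 and 419 (log2 fold change 2.87 ± 0.36, adjusted p = 0.005). H2-DMb2, a chain of the peptide-loading complex, measured 15218 and 15752 in the T-bet- cDC2 libraries and 4679.9, 1878 and 2759.8 in the cDC1 libraries (log2 fold change 2.32 ± 0.43, adjusted p = 0.021), and Ctss, the protease that trims the invariant chain, 56955 and 43266 in T-bet- cDC2s against 18173, 20029.9 and 20254 in cDC1s (log2 fold change 1.36 ± 0.27, adjusted p = 0.026). The class II chains H2-Aa and H2-Ab1 and the invariant chain Cd74 did not pass, at 0.75 ± 0.40, 0.11 ± 0.51 and 0.70 ± 0.43. The libraries of the subsets did not overlap for H2-Aa and Cd74, as for 39.1% of all genes. In spleen 10 of the 18 class II genes were higher.

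Lysosomal proteases, saposin and lipid handling genes were higher in 12 of 33 and lower in none, with a median of 0.6 and refitted counts of 3, 5 and 11. Abca1, the cholesterol exporter, measured 524 and 683 against 7.7, 26.3 and 3.6 (log2 fold change 5.6 ± 0.80, adjusted p = 0.0079), and Lpl, lipoprotein lipase, 623 and 587 in the T-bet- cDC2 libraries and 4.4, 28.5 and 34.6 in the cDC1 libraries (log2 fold change 4.73 ± 0.72, adjusted p = 0.01). Ctsf, a cysteine protease, had 147 raw counts against 1, a ratio of 207 (36.6 to 8240). Cst3, the secreted inhibitor of cysteine proteases, measured 68631 and 66218 in T-bet- cDC2s against 390973, 199198 and 222754 in cDC1s and just missed the threshold (log2 fold change -2.01 ± 0.48, adjusted p = 0.052). Psap, the saposin precursor, and Ctsb, a lysosomal protease, did not pass, at -0.93 ± 0.38 and -0.14 ± 0.43. Again 4.34% of all genes were called higher.

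The plot of gene lists sets these groups beside each other, where 4.34% of all genes were called higher and 1.44% lower. Chemokine receptors were higher in 6 of 21 and lower in 2, with a median of 1.29 and refitted higher counts of 4, 3 and 6. Ccr1, an inflammatory chemokine receptor, measured 2067 and 1084 against 25.2, 8.8 and 18.2 (log2 fold change 6.49 ± 0.54, adjusted p = 0.00086). Gpr183, the oxysterol receptor that positions cells in follicles, measured 11545 and 9406 in the T-bet- cDC2 libraries and 697, 299.6 and 462 in the cDC1 libraries (log2 fold change 4.43 ± 0.39, adjusted p = 0.0011). Ccr6, the receptor for CCL20, measured 916 and 706 in T-bet- cDC2s against 29.5, 113 and 55.5 in cDC1s (log2 fold change 3.62 ± 0.51, adjusted p = 0.0078), and Ccrl2, a chemerin-binding receptor, 17116 and 22995 against 3498, 2149 and 4612 (log2 fold change 2.55 ± 0.38, adjusted p = 0.009). The lower members were Xcr1 and Cxcr3, the receptor for CXCL9 and CXCL10, at 86.5 and 45.1 in the T-bet- cDC2 libraries and 3574, 931 and 1180.3 in the cDC1 libraries (log2 fold change -4.84 ± 0.76, adjusted p = 0.012). Ccr7, the receptor that guides dendritic cells into nodes, was among the most abundant transcripts of both subsets at 242813 and 254936 in T-bet- cDC2s against 68888, 233844 and 225002 in cDC1s. Its lowest value was that of cDC1 replicate 1, and it did not pass the test (log2 fold change 0.50 ± 0.64, adjusted p = 0.74).

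**Figure D4:**
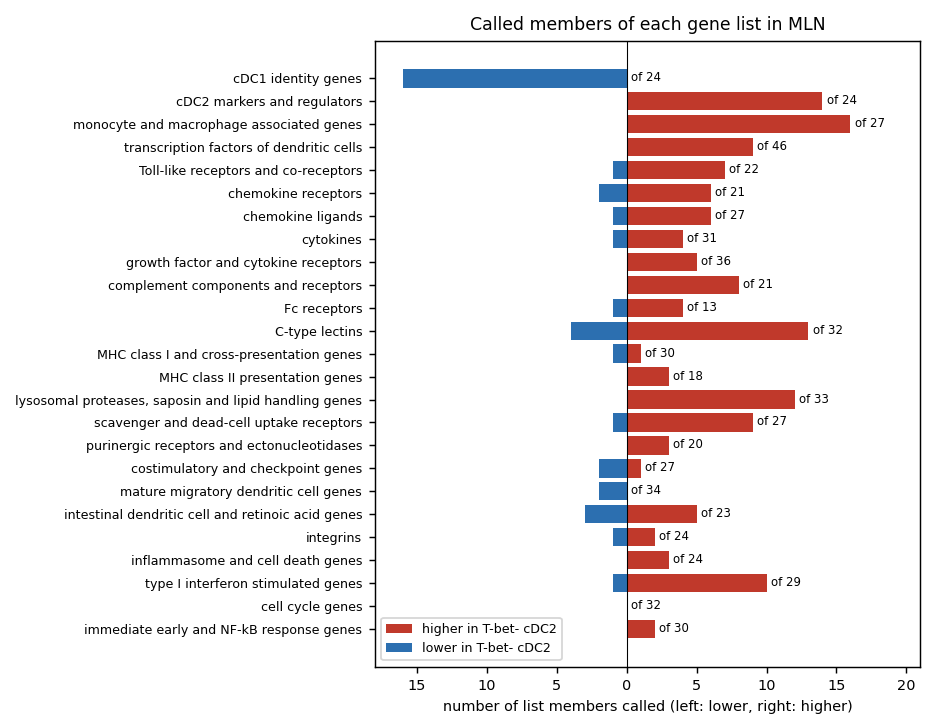
Number of members of each gene list called in MLN at an adjusted p under 0.05, as bars to the right for genes higher in T-bet- cDC2s (red) and to the left for genes lower (blue), with the number of members tested beside each bar. The longest bars are the 16 of 24 cDC1 identity genes that were lower and the 16 of 27 genes associated with monocytes and macrophages that were higher, and cell cycle genes have no bar. Among all genes tested, 4.34% were called higher and 1.44% lower.

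Chemokine ligands were higher in 6 of 27 and lower in 1, with a median of 0.86 and refitted higher counts of 0, 1 and 6. Ccl9, a ligand of CCR1, measured 2369.7 and 2882 against 52.5, 249 and 252 (log2 fold change 3.83 ± 0.61, adjusted p = 0.012). Ccl6, of the same family, measured 2398 and 2539.5 in the T-bet- cDC2 libraries and 464, 379.7 and 552 in the cDC1 libraries (log2 fold change 2.41 ± 0.34, adjusted p = 0.0075), and Cxcl2, a neutrophil attractant, 1673 and 1488 in T-bet- cDC2s against 173, 193 and 368 in cDC1s (log2 fold change 2.69 ± 0.53, adjusted p = 0.026). Ccl12, a ligand of CCR2, had 409 raw counts against 2, a ratio of 288 (79.3 to 2390), and Pf4, platelet factor, 118 against 3, a ratio of 55.5 (18.5 to 273). Cxcl9, a ligand of CXCR3, was the lower member at 1974 and 1202 against 12116, 4017 and 5997 (log2 fold change -2.22 ± 0.50, adjusted p = 0.042). Ccl22, Ccl5 and Cxcl16 overlapped, with log2 fold changes of -0.07 ± 0.53, 0.22 ± 0.68 and 0.01 ± 0.67. Across all genes, 4.34% were called higher and 1.44% lower.

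Cytokines were higher in 4 of 31 and lower in 1, with a median of 1.2 and refitted higher counts of 3, 1 and 4. Il1rn, the IL-1 receptor antagonist, measured 4469.8 and 5087 in the T-bet- cDC2 libraries and 62.3, 150.3 and 173 in the cDC1 libraries (log2 fold change 5.21 ± 0.48, adjusted p = 0.0015), and Il1a, an IL-1 agonist, 636 and 486 in T-bet- cDC2s against 56.9, 34 and 46.4 in cDC1s (log2 fold change 3.61 ± 0.58, adjusted p = 0.012). Osm, oncostatin M, measured 2464 and 3928 against 110.5, 278 and 426 (log2 fold change 3.56 ± 0.51, adjusted p = 0.008), and Bmp2, a bone morphogenetic protein, 40.9 and 102 in the T-bet- cDC2 libraries and 2.2, 5.5 and 6.4 in the cDC1 libraries (log2 fold change 3.88 ± 0.65, adjusted p = 0.014). Il12b, which encodes the p40 chain shared by IL-12 and IL-23, was lower at 435 and 863 in T-bet- cDC2s against 7347, 7696 and 11660.4 in cDC1s (log2 fold change -3.78 ± 0.79, adjusted p = 0.032). The cytokine list had no lower call without cDC1 replicate 1. Il1b measured 42819 and 63942 against 17082, 3759.5 and 12989. Its T-bet- libraries stood above all cDC1 libraries, but it missed the threshold (log2 fold change 2.24 ± 0.57, adjusted p = 0.062) and its locus holds an antisense gene, Il1bos. Il15 and Ebi3 overlapped between the subsets. Beside the cytokine counts, 4.34% of all genes were called higher and 1.44% lower.

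Growth factor and cytokine receptors were higher in 5 of 36 and lower in none, with a median of 0.37 and refitted counts of 2, 2 and 3. They were Csf1r, Csf3r, the G-CSF receptor, at 1734 and 1134 in the T-bet- cDC2 libraries and 2.2, 85.6 and 22.7 in the cDC1 libraries (log2 fold change 5.29 ± 0.97, adjusted p = 0.02), Il1r2, the decoy receptor for IL-1, at 753 and 776 in T-bet- cDC2s against 38.3, 12.1 and 30 in cDC1s (log2 fold change 4.83 ± 0.50, adjusted p = 0.0021), Il2ra and Il27ra. Il2ra, the CD25 chain, measured 2489 and 1159.6 against 112, 369 and 252 (log2 fold change 2.90 ± 0.66, adjusted p = 0.043). Il27ra, a receptor chain for IL-27, measured 629 and 708 in the T-bet- cDC2 libraries and 132, 289 and 197 in the cDC1 libraries (log2 fold change 1.70 ± 0.39, adjusted p = 0.044). Il4ra measured 11678 and 11316 in T-bet- cDC2s against 15569, 42589 and 39419 in cDC1s and did not pass (adjusted p = 0.15). The count of receptors called higher stands beside 4.34% of all genes.

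Purinergic receptors and ectonucleotidases were higher in 3 of 20, with a median of 0.77 and refitted counts of 0, 2 and 2. P2ry13, an ADP receptor, measured 4321 and 2052 against 84.2, 59.3 and 32.7 (log2 fold change 5.76 ± 0.80, adjusted p = 0.007), P2ry12, another ADP receptor whose locus overlaps Med12l, 991 and 378 in the T-bet- cDC2 libraries and 106, 64.7 and 75.5 in the cDC1 libraries (log2 fold change 3.06 ± 0.55, adjusted p = 0.018), and P2ry2, an ATP and UTP receptor, 80 and 82.1 in T-bet- cDC2s against 6.6, 2.2 and 10 in cDC1s (log2 fold change 3.65 ± 0.68, adjusted p = 0.021). P2ry14, the receptor for UDP-glucose, ran the other way at 903 and 399.6 against 7839.5, 1789.8 and 2839 and did not pass (adjusted p = 0.11). Here too 4.34% of all genes were called higher.

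Intestinal dendritic cell and retinoic acid genes were mixed, 5 of 23 higher and 3 lower, with a median of 0.15 and refitted higher counts of 2, 3 and 3. Cd101, an inhibitory receptor of gut dendritic cells, measured 301 and 264 in the T-bet- cDC2 libraries and 0, 2.2 and 8.2 in the cDC1 libraries (log2 fold change 6.22 ± 0.82, adjusted p = 0.0062). Rarg, a retinoic acid receptor, measured 635 and 309 in T-bet- cDC2s against 23, 25.2 and 22.7 in cDC1s (log2 fold change 4.31 ± 0.44, adjusted p = 0.002), and Stra6, the receptor for retinol-binding protein, 301 and 189 against 16.4, 17.6 and 27.3 (log2 fold change 3.57 ± 0.72, adjusted p = 0.029). Dhrs3, a retinaldehyde reductase, measured 3802 and 3219 in the T-bet- cDC2 libraries and 488, 767 and 624 in the cDC1 libraries (log2 fold change 2.49 ± 0.28, adjusted p = 0.0031), whereas Dhrs9, a retinol dehydrogenase, was lower at 65.1 and 29 in T-bet- cDC2s against 365, 246 and 169 in cDC1s (log2 fold change -2.46 ± 0.52, adjusted p = 0.032). Aldh1a2, the enzyme that makes retinoic acid in migratory gut dendritic cells, measured 3090.2 and 8215 against 9824, 32330.1 and 33173. Its T-bet- libraries were below all cDC1 libraries, but the difference did not pass (log2 fold change -2.15 ± 0.84, adjusted p = 0.2). Integrins were higher in 2 of 24 and lower in 1, with a median of 0.16. Both lists stand beside 4.34% of all genes called higher and 1.44% lower. The higher members were Itgam and Itga9, at 202 and 28 in the T-bet- cDC2 libraries and 6.6, 1.1 and 6.4 in the cDC1 libraries (log2 fold change 4.57 ± 0.99, adjusted p = 0.036), and the lower one was Itgae. Itgb8, part of the integrin that activates TGF-beta, measured 748 and 200.3 in T-bet- cDC2s against 1089, 5030.2 and 4007 in cDC1s and did not pass (adjusted p = 0.28).

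Type I interferon stimulated genes were higher in 10 of 29 and lower in 1, with a median of 0.82 and refitted higher counts of 4, 6 and 9. Rtp4, a chaperone of receptors, measured 1584 and 1013 against 53.6, 29.6 and 33.6 (log2 fold change 5.06 ± 0.48, adjusted p = 0.0016). Ddx58, which encodes the RNA sensor RIG-I, measured 2859.6 and 2056 in the T-bet- cDC2 libraries and 210, 306 and 339 in the cDC1 libraries (log2 fold change 3.11 ± 0.32, adjusted p = 0.002). Oas2, an oligoadenylate synthetase, measured 981 and 588 in T-bet- cDC2s against 28.4, 49.4 and 1.8 in cDC1s (log2 fold change 4.90 ± 0.90, adjusted p = 0.02). Ifit3 and Ifit3b, near-identical genes whose reads may be split between them, had log2 fold changes of 3.81 ± 0.36 and 4.62 ± 0.51. Oasl1 was the lower member at 1471 and 781 against 3089, 5051 and 4457 (log2 fold change -1.90 ± 0.40, adjusted p = 0.033). Irf7, a transcription factor of the response, and Usp18, its inhibitor, did not pass, at -0.00 ± 0.52 and 0.65 ± 0.39. Among all genes 4.34% were called higher and 1.44% lower.

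Inflammasome and cell death genes were higher in 3 of 24, with a median of 0.95 and refitted counts of 0, 0 and 1. Mefv, which encodes pyrin, measured 1945 and 2019 in the T-bet- cDC2 libraries and 373, 119.6 and 262 in the cDC1 libraries (log2 fold change 2.98 ± 0.44, adjusted p = 0.0087), Nod1, a peptidoglycan sensor, 798 and 1754 in T-bet- cDC2s against 279, 202 and 257 in cDC1s (log2 fold change 2.37 ± 0.49, adjusted p = 0.032), and Naip2, a sensor of bacterial secretion systems, 1238 and 853 against 226, 415 and 271 (log2 fold change 1.78 ± 0.39, adjusted p = 0.037). Immediate early and NF-kB response genes were higher in 2 of 30, with a median of 0.52 and refitted counts of 0, 0 and 1. They were Fosl2, an AP-1 subunit, at 987 and 1773 in the T-bet- cDC2 libraries and 396, 105 and 245 in the cDC1 libraries (log2 fold change 2.47 ± 0.54, adjusted p = 0.037), and Cd69, an early activation marker, at 1876 and 2245 in T-bet- cDC2s against 439.7, 443 and 890.2 in cDC1s (log2 fold change 1.80 ± 0.35, adjusted p = 0.026). Fos and Junb varied by more between libraries of a subset than between the subsets. Both counts of this paragraph stand beside 4.34% of all genes called higher.

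Maturation, costimulation and cell cycle genes are likewise set beside all genes, with 4.34% called higher and 1.44% lower. Of 34 mature migratory genes 2 were lower and none higher, with a median of -0.01. The low values of this list in cDC1 replicate 1 enter that median. The 2 calls were lost without cDC1 replicate 1, and were lost as well without either T-bet- library. The lower members were Il12b and Cd86, a costimulatory ligand of CD28, at 3918 and 2851 against 13042, 7171 and 8449 (log2 fold change -1.50 ± 0.34, adjusted p = 0.042). Costimulatory and checkpoint genes were higher in 1 of 27 and lower in 2, with a median of 0.19. Btla, an inhibitory receptor, measured 1587 and 1011 in the T-bet- cDC2 libraries and 16926, 7700.1 and 10028 in the cDC1 libraries (log2 fold change -3.15 ± 0.43, adjusted p = 0.0069). Cd83, Cd40 and Slamf7 did not pass, at 0.23 ± 0.39, 0.19 ± 0.42 and -0.08 ± 0.28. Cell cycle genes gave no call by edgeR among 32, but their median was -0.62, only 6 had a fold change above 0, 3 were lower by DESeq2 and 11 were lower in spleen. The high values of 18 of these 32 genes in cDC1 replicate 1 enter the MLN median. Their summed level was 1354.4 and 976 CPM in the T-bet- cDC2 libraries against 2108.6, 1133.9 and 963.3 CPM in the cDC1 libraries. The members lower by DESeq2 were the cyclins Ccna2 and Ccnb2 and the mitotic regulator Cdc20, chosen after their values were seen, with edgeR log2 fold changes of -1.55 ± 0.50, -1.58 ± 0.59 and -1.84 ± 0.56. The helicase subunits Mcm3, Mcm5 and Mcm7, the most abundant members, were among the 6, at 0.42 ± 0.37, 0.15 ± 0.37 and 0.36 ± 0.41.

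Spleen libraries of the same subsets, 3 of each and none shared with MLN, gave a second set of values. Whether the spleen and MLN libraries came from the same animals is not stated. In spleen 2279 of 14377 genes were called (15.9%). Of the 664 genes higher in MLN T-bet- cDC2s, 636 were tested in spleen and 514 were higher there too, which is 77.4% of the MLN genes and 37% of the 1388 higher in spleen. Of the 221 lower in MLN, 213 were tested and 162 were lower in spleen, 73.3% of the MLN genes and 18.2% of the 891 lower in spleen. Only 2 genes called in both organs went opposite ways, Cd1d1 and Tnik. Tnik, a kinase of Wnt signalling, had a log2 fold change of -3.26 in MLN and 5.29 ± 1.56 in spleen (adjusted p = 0.047), but the test of the organ difference did not pass (adjusted p = 0.11).

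The markers ran alike in spleen in sign. Csf1r had a log2 fold change of 6.16 ± 0.28 there (adjusted p = 3.2e-06) and Xcr1 -6.56 ± 0.34 (adjusted p = 4.7e-06). Ccr2 passed the test in spleen at 2.39 ± 0.48 (adjusted p = 0.0081). Irf8, Cst3 and Cd36, not called in MLN, were lower in T-bet- cDC2s of spleen at -3.63 ± 0.39 (adjusted p = 0.00021), -3.10 ± 0.27 (adjusted p = 5.1e-05) and -3.20 ± 0.53 (adjusted p = 0.0027). Whether these genes differ between the organs was tested only through the interaction, in which they were not called.

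The difference between the subsets itself differed between the organs in 6 of 16795 genes (0.0357%), with 991 at an unadjusted p under 0.05. The values of these genes are normalised over all 16 RNA libraries, and differences are MLN minus spleen in log2 fold change. Adgrl3, a latrophilin adhesion receptor, measured 284 and 351 against 4, 0 and 3.6 in MLN, and 1387, 899 and 1044 against 446, 597 and 937 in spleen (difference 6.11 ± 0.69, adjusted p = 0.003). The cDC1s of spleen carried Adgrl3 while those of MLN had almost none. Cd1d1, which presents lipids to NKT cells, measured 30839 and 18278 against 3363, 4886 and 4945 in MLN and 1946, 1761 and 1490 against 6392, 5867 and 8031 in spleen (difference 4.45 ± 0.62, adjusted p = 0.015). Its order between the subsets was turned. Gpr4, a proton-sensing receptor, measured 985 and 766 against 3680, 1683 and 2522 in MLN and 349, 246 and 247 against 5695, 4961 and 5208 in spleen (difference 2.65 ± 0.41, adjusted p = 0.038).

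The other 3 genes had a larger log2 fold change in spleen than in MLN. In the fit of 16 libraries Tppp3 and Pdcd1lg2 lay below 0 in MLN, at -0.85 and -0.95, against 4.16 and 4.14 in spleen. Cd209b, a SIGN lectin, measured 88.2 and 103 against 46.2, 25.7 and 36.9 in MLN and 1346, 1341 and 1241 against 16, 9.2 and 8.4 in spleen (difference -5.45 ± 0.58, adjusted p = 0.003). Tppp3, a tubulin-binding protein, measured 129 and 132 against 197, 269 and 238 in MLN and 938, 1202 and 694 against 61.1, 48.9 and 47.9 in spleen (difference -5.01 ± 0.65, adjusted p = 0.01). Pdcd1lg2, which encodes the PD-1 ligand PD-L2, measured 1922 and 1137 against 1240, 4160 and 3481 in MLN and 979, 1014 and 817 against 50.1, 30.5 and 79 in spleen (difference -5.09 ± 0.68, adjusted p = 0.012). Pdcd1lg2 belongs to the mature migratory list, in which MLN cDC1 replicate 1 stands below the other cDC1 libraries. Cd38, Tpm2, Oas1a and Asphd2 came next by p and did not pass, with adjusted p from 0.076 to 0.083. The differences were 3.23 for Cd38, 2.25 for Tpm2 and -2.78 for Oas1a, and none is given for Asphd2, which had no read in any spleen cDC1 library. The plot of both organs sets the fold changes of these genes except Asphd2 side by side. The call on 6 genes was unstable, with 1 gene without MLN T-bet- replicate 1, 28 without MLN cDC1 replicate 1, 3 without spleen cDC1 replicate 1 and 114 by DESeq2.

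**Figure D5:**
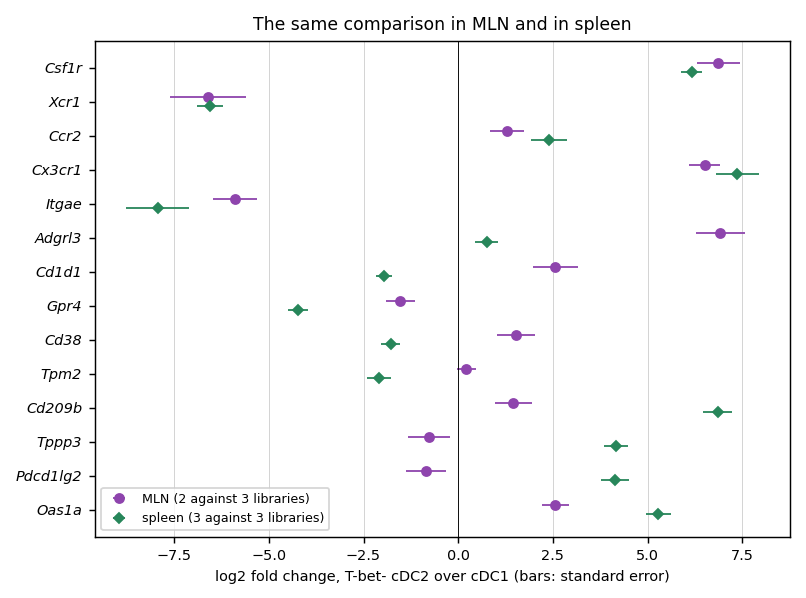
Log2 fold change of T-bet- cDC2 over cDC1 for selected genes, with MLN as circles (2 against 3 libraries) and spleen as diamonds (3 against 3), each from the fit of its own organ and with bars for the standard error. The MLN and spleen points lie close to each other for Csf1r and likewise for Xcr1, whereas Adgrl3 and Cd1d1 lie further right in MLN and Cd209b, Tppp3 and Pdcd1lg2 further right in spleen.

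Chromatin accessibility was measured in spleen only, so it is another readout on the same sorted subsets but not on MLN cells. Of 166547 windows tested, 29773 differed between T-bet- cDC2s and cDC1s (17.9%), 12191 being more accessible in T-bet- cDC2s (7.32%) and 17582 less (10.6%), with calls made at an adjusted p below 0.01 together with a log2 fold change beyond 0.5 either way. Of the 664 genes with higher MLN RNA, 301 had a window within 2000 bases of the gene start, and 40.9% of these had a more accessible window and 4.98% a less accessible one. Of the 221 with lower RNA, 98 had a window, and 17.3% had a more accessible and 45.9% a less accessible one. Among genes not called, 5754 had a window, with 26.4% and 8.5%. Within 1000 bases the shares were 37.7% and 3.28% for the higher genes, 17.4% and 38.4% for the lower genes and 26.1% and 6.27% for the others.

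Single genes showed both concordant and discordant windows. The window at position -738 from the start of Sirpa held 140 and 138 normalised counts in T-bet- cDC2s against 4.2 and 8 in cDC1s (log2 fold change 4.50, adjusted p = 4.3e-16). At Itgam, 928 bases past the start, the window held 52.1 and 56.1 against 16.7 and 16.1 (log2 fold change 1.71, adjusted p = 0.00017). At Tlr3, 30 bases past the start, it held 28.2 and 24.1 against 165 and 169 (log2 fold change -2.68, adjusted p = 3.6e-12). These 3 windows, chosen among called ones, followed the RNA. At Ccr6, higher in RNA, the window at -1270 was less accessible in T-bet- cDC2s (log2 fold change -2.50, adjusted p = 2.3e-14). The Il1a window at -292 was also less accessible (log2 fold change -1.61, adjusted p = 0.0017), although its MLN RNA was higher. In spleen, the organ of the windows, Il1a RNA was not called (log2 fold change 0.92 ± 0.77, adjusted p = 0.48). The Csf1r window at -1450 was not called, at 0.27 (adjusted p = 0.62). Neither of the Ccr2 windows was called, at log2 fold changes of 0.44 and 1.89 (adjusted p = 0.52 and 0.086). None of the 4 windows near the start of Adgrl3 was called, with log2 fold changes from -0.07 to 0.43. At Pdcd1lg2, at position -36, the window was less accessible in T-bet- cDC2s, with 21.7 and 18.7 against 60.7 and 85.1 (log2 fold change -1.85, adjusted p = 2.5e-05), although the spleen RNA of Pdcd1lg2 was higher in that subset by 4.14 ± 0.36 (adjusted p = 5.9e-05).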

How the data were processed

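RNA was amplified by SMART-Seq v4 and sequenced as paired reads of 50 bases. As the labels and the study's methods describe, the authors aligned reads with HISAT2 2.1.0 to mm10, kept unique alignments with SAMtools 1.9 and counted them per GENCODE gene with Rsubread, and deposited raw read counts per gene, library by library; whether counting used strand is not stated. For ATAC-seq the authors aligned with Bowtie2 2.2.5, called peaks with MACS2 2.1.1.20160309 and deposited read counts over summit windows of 150 bases and over peaks. The deposited window and peak lists also hold a score column and a -log10 p column, which were not used. No deposited comparison of the authors was used.

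Counts were tested with edgeR 4.0.16 in R 4.3.3: genes passing filterByExpr, TMM scaling, the quasi-likelihood test, and p-values adjusted by the Benjamini-Hochberg method. All 7 MLN RNA libraries entered the fit, so the T-bet+ cDC2 libraries shared in the estimate of spread, with 4 residual degrees of freedom. The spleen fit used its 9 libraries, the organ difference an interaction over 16 libraries, and ATAC windows its 6 libraries. Alternatives were DESeq2 1.42.0 (the tool of the study), other scalings and filters, replicate blocks, a GC term and leaving out single libraries. The scripts were tested on simulated data. Gene positions came from GENCODE M21 on GRCm38, where 19698 of 34047 symbols matched, and window sequences from the RefSeq genome GRCm38.p6. Python 3.11.15, pandas 2.3.3 and matplotlib 3.10.9 handled sequences and plots. No 2 MLN libraries were identical.

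Depth was 22733964 to 29006549 counts per MLN library compared. Intervals and lower bounds of folds cover counting error at the 95% level only, and bounds set 3 counts over the group with no reads. The named genes are the 3 markers, the 10 largest called changes in each direction with a mean of at least 50 normalised counts and no overlap, up to 5 called members per direction and up to 3 abundant members not called from each list, 5 genes per direction with the smallest p for the organ difference, and fixed cell type markers; clone-named genes, which made up 94 of the 885 called, were not named, and some genes that meet these rules are not reported here. There were 36 lists of 730 genes, 13 of which are not in the table. The comparison, the members and the lists were chosen with earlier results of these data known. The library labels follow the sort; a methods sentence that gives the fluorescence of the cDC2 subsets the other way round was not followed. The study's methods give 2 biological replicates for MLN, whereas the deposited MLN cDC1 group has 3 libraries. Whether all 3 are independent biological replicates is not stated, and the tests counted each as 1. The T-bet- libraries named 2 and 3 are called replicates 1 and 2 here, as their titles say.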

Additional observations from a re-analysis of the deposited data

Results flagged for a closer look

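For 6 genes the change from cDC1 to T-bet- cDC2 differed between MLN and spleen by the interaction test over 16 libraries, given as MLN minus spleen in log2 fold change. Adgrl3 differed by 6.11, being near 0 in MLN cDC1s only, and was called in 15 of 16 alternative fits. Cd1d1 differed by 4.45 and was called in 9 of 16, with every MLN T-bet- library above and every spleen T-bet- library below the cDC1s of its organ. Gpr4 differed by 2.65 and was called in 5 of 16. Cd209b differed by -5.45 and was called in 15 of 16. Tppp3 differed by -5.01 and was called in 13 of 16. Pdcd1lg2 differed by -5.09 and was called in 12 of 16. No explanation for these differences was tested.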

How the results depend on the processing

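The MLN count of 885 called genes ran from 177 to 2477 over the alternatives. Leaving out 1 library gave 177 to 1043 calls, with a lone T-bet- library then assumed to vary like the other groups. The count was 1730 by DESeq2 (62.8% higher against 75% in edgeR), 2012 with no filter on low counts (66.1% higher), 530 with at least 10 counts in every library, 513 with a term for the GC trend of each library and 263 at an adjusted p under 0.01 (89.7% higher). Other scalings, other sets of libraries, the newer dispersion and a minimum of size and level gave 654 to 1212. For spleen, leaving out 1 library gave 1464 to 3077 calls against 2279. For the organ difference the count of 6 became 114 by DESeq2, 261 with no filter, 14 with the 11 libraries of the compared subsets and 1 to 28 on leaving out 1 library. For ATAC windows the count of 29773 became 17143 by DESeq2, 17711 at an adjusted p under 0.001 with a log2 fold change over 1, and 17646 to 21396 on leaving out 1 library. The causes of these moves were not tested, beyond fewer samples or genes. Of 187 named genes, 115 were called, all of which kept their sign in the 17 or 18 alternatives that gave them a value, and 38 were called in all of those.

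The sources do not say whether equal numbers mark shared animals or days, and MLN libraries were not treated as pairs. Deviations from group means of libraries with the same replicate number correlated at 0.207 and 0.014 between T-bet- cDC2s and cDC1s, at -0.137 between T-bet- and T-bet+ cDC2s, and at 0.657 and 0.62 between T-bet+ cDC2s and cDC1s. By the number in the library name they correlated at -0.014 and 0.357 between T-bet- cDC2s and cDC1s and at 0.137 between the cDC2 subsets, and T-bet- replicate 1 correlated best with a cDC1 library of another number. Deviations from a group mean are equal and opposite in a group of 2 libraries and cancel out within any group. The correlations of a group are therefore tied to each other and are not separate evidence on pairing. With the replicate number as a block the MLN count was 515 and the organ difference 1, and with the number in the library name as a block the MLN count was 2477 (57.2% higher). In spleen the block gave 1610 and for ATAC windows 28852 calls.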
